A study of Ramazzottius varieornatus and Hypsibius exemplaris with 16 samples.

Results

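Storage cells of the tardigrade Ramazzottius varieornatus were compared with active whole animals of the same strain, YOKOZUNA-1, by RNA sequencing. The comparison used every R. varieornatus library of the series, chosen by species and sample type from the sample titles: 5 libraries of storage cells and 3 libraries of active whole bodies, 8 of the 16 libraries in all. The storage cells were freed by cutting animals open in dilute saline and were drawn up into the lysis buffer of a SMART-Seq v.4 kit. The whole bodies were crushed, lysed in TRIzol and column-purified before the same SMART-Seq v.4 amplification. Animals of both groups were kept at 22°C on agar with Chlorella vulgaris as food. No allele or agent separates the groups, and the labels name no age or sex and do not say how many animals or cells made a library. The preparation of RNA differed between the sample types exactly as the groups did, so the effects of preparation and of sample type cannot be told apart.

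Storage cells are free cells that drift in the fluid of the tardigrade body cavity and hold reserves such as lipid, glycogen and protein. They move with the body fluid and are thought to supply the other tissues, and in tardigrades that survive drying they have been studied for changes during dehydration. A whole-body library contains RNA of storage cells together with that of gut, muscle, epidermis, nervous system and germ line, so a difference between the sample types compares one cell population with a mixture that includes it. In such bulk samples, fewer cells of a type and less RNA per cell cannot be told apart. SMART-Seq copies polyadenylated RNA by template switching and amplifies the copies, which allows libraries to be made from few cells.

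The tables listed 14532 targets, that is, transcript models, of 13920 genes as judged from the identifiers. Their lengths ran from 105 to 58851 bases with a median of 1080, and since 99.6% of the lengths divide by 3 they are called coding lengths. No identifier (0) matched the table of gene names used here. Targets are therefore described by identifier, level and coding length, and the label "storage cells" could not be checked against marker genes. Storage libraries held 8228370 to 11174369 estimated counts and whole-body libraries 5404555 to 5601269. Of all targets, 928 had no count in any library after rounding, and 10483 had enough counts to be tested.

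Storage cell RNA came from shorter coding sequences than whole-body RNA did. An average count belonged to a target of 1757, 1521, 1568, 1411 and 1659 bases in storage replicates 1 to 5, against 2694, 2728 and 2698 bases in whole-body replicates 1 to 3. No storage library came near a whole-body library. The means were 1583 ± 132 bases (SD, n = 5) in storage cells and 2706 ± 18.5 bases (SD, n = 3) in whole bodies, a difference of -1123 bases (two-sided exact permutation test over libraries, p = 0.0179, the smallest that 5 against 3 allows, adjusted p = 0.0268). Adjustment was by the Benjamini-Hochberg method over 6 measures per library, which are all given in what follows.

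The share of long targets differed most in counts. Targets of 4000 bases or more supplied 3.12%, 4.74%, 3.11%, 2.94% and 8.20% of the counts of storage replicates 1 to 5, and 20.5%, 20.4% and 20.4% of those of whole-body replicates 1 to 3. The groups were far apart, at 4.42% ± 2.23 in storage cells (SD, n = 5) and 20.4% ± 0.0744 in whole bodies (SD, n = 3; exact permutation p = 0.0179, adjusted p = 0.0268). Targets under 1000 bases supplied 25.6%, 37.2%, 35.8%, 40.2% and 29.9% of the storage cell counts, against 21.5%, 21.6% and 21.7% in whole bodies. All storage libraries lay above all whole bodies here too, with 33.8% ± 5.89 in storage cells (SD, n = 5) and 21.6% ± 0.134 in whole bodies (SD, n = 3; exact permutation p = 0.0357, adjusted p = 0.0429). Without storage replicate 4, or without any one of the whole-body libraries, the adjusted p of each of these 3 length measures was between 0.0571 and 0.0686, although the remaining libraries of the groups did not overlap. The share of short targets also missed the threshold without storage replicate 2, 3 or 5 (adjusted p = 0.0686 each). In TPM in place of counts the share from 4000 bases on differed by -2.93 points (adjusted p = 0.0268), that under 1000 bases by 9.88 points (adjusted p = 0.0429) and the mean length by -331 bases (adjusted p = 0.0268). Without the 10 most abundant targets of each library, the share from 4000 bases on differed by -8.67 points and the mean length by -746 bases (adjusted p = 0.0268 each).

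**Figure D1:**
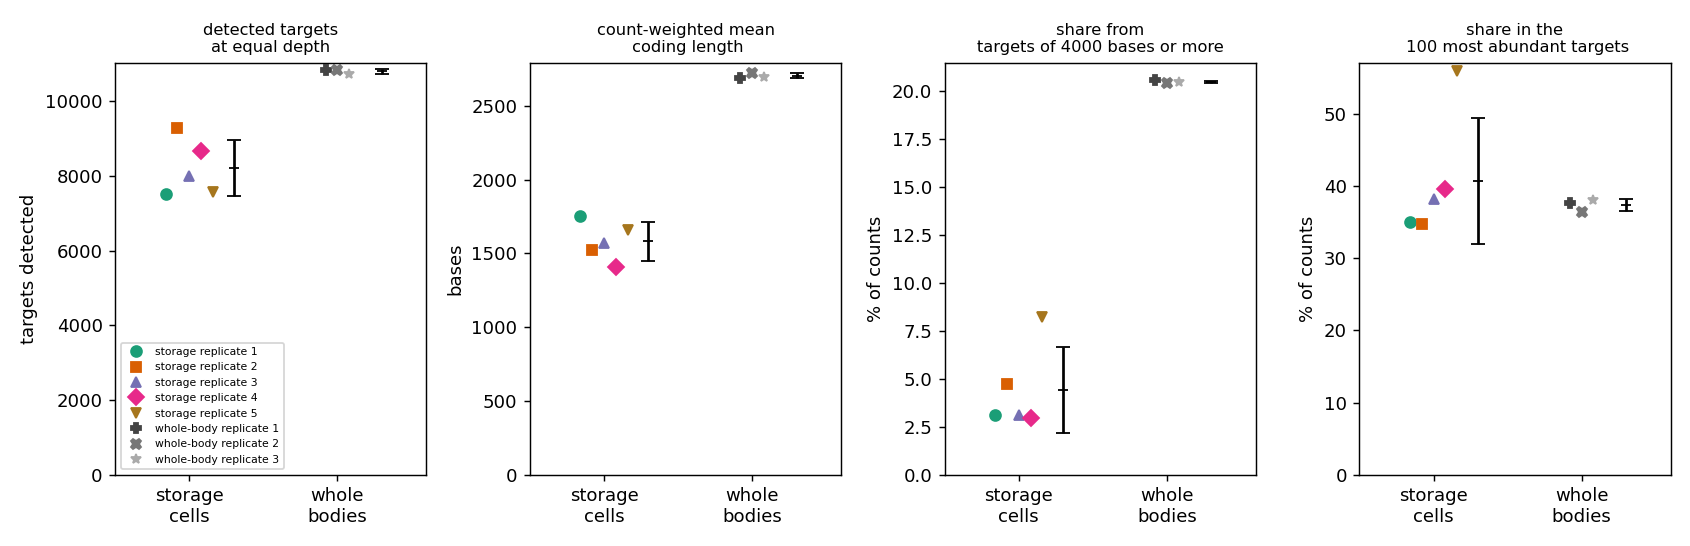
Per-library measures in the 5 storage cell libraries (left in each panel) and the 3 whole-body libraries (right): targets detected at equal depth, mean coding length of the target behind a count (bases), and the shares of counts (%) from targets of 4000 bases or more and from the 100 most abundant targets. Bars give mean ± SD. The groups do not overlap in the first 3 panels, and storage replicate 5 stands above all other libraries in the last at 55.9%.

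Between the extremes the classes changed over in order. The class of 500 to 1000 bases (each class includes its lower border and not its upper one) held 22.7% to 34.7% of the counts in storage cells and 19.6% to 19.8% in whole bodies. The class of 1000 to 2000 bases held 40.4% to 48.3% in storage cells and 31.6% to 32.0% in whole bodies. In both of these classes every storage library exceeded every whole body. The class of 2000 to 4000 bases did not separate the sample types, since storage libraries ran from 13.1% to 28.5% and whole bodies from 26.0% to 26.3%. The class of 4000 to 8000 bases held 2.34% to 7.89% in storage cells and 15.2% to 16.1% in whole bodies, and targets of 8000 bases or more held 0.259% to 0.763% in storage cells and 4.46% to 5.17% in whole bodies.

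The same order was seen when each target counted once. Per library, the median log2 CPM (CPM are counts scaled to TMM-corrected library size, here centred for each target midway between the group means) of tested targets of 4000 bases or more was set against that of tested targets under 1000 bases. The difference of long minus short was -1.08, -1.61, -1.38, -1.77 and -1.58 on the log2 scale in storage replicates 1 to 5, against 1.48, 1.57 and 1.51 in whole-body replicates 1 to 3. Because of the centring the groups must take opposite signs of about equal size, so what the values show is the distance between the groups and the spread within them. Storage cells averaged -1.48 ± 0.26 (SD, n = 5) and whole bodies 1.52 ± 0.05 (SD, n = 3), a difference of -3.0 between the groups (exact permutation p = 0.0179, adjusted p = 0.0268; adjusted p = 0.0571 without storage replicate 4 or any one whole body). With targets of at least 10 CPM on average in both groups, which left 6073 targets of which 327 were long, the difference between the groups was -2.77 (adjusted p = 0.0268).

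**Figure D2:**
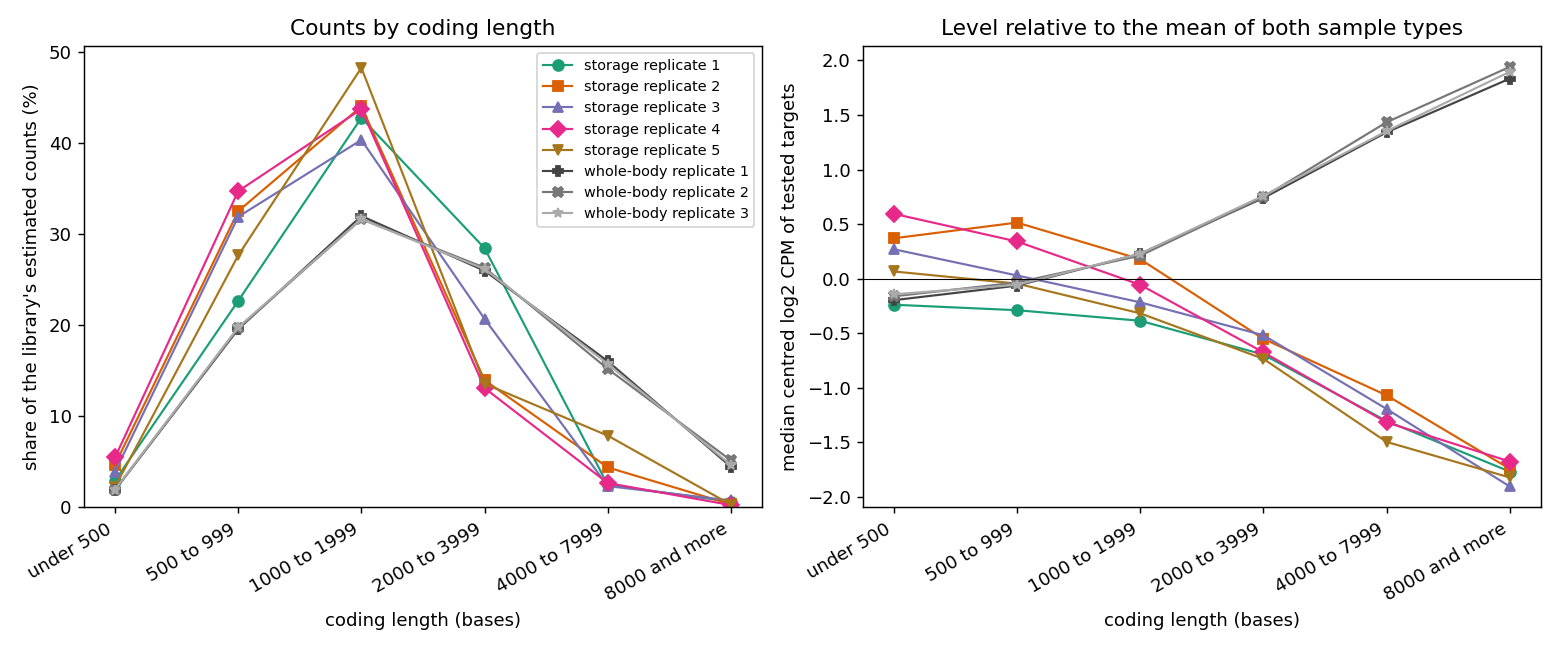
Left, the share of each library's estimated counts (%) by class of coding length (bases). Right, the median centred log2 CPM of the tested targets in each class, where 0 is midway between the group means. The 5 storage cell libraries (coloured) carry more counts at 500 to 2000 bases and fewer from 4000 bases on than the 3 whole-body libraries (grey), and from 1000 bases on their medians fall with length while those of whole bodies rise.

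The edgeR quasi-likelihood test called 3161 of the 10483 tested targets (30.2%) at a Benjamini-Hochberg adjusted p under 0.05, 1422 (13.6%) being higher in storage cells and 1739 (16.6%) lower. The calls were spread very unequally over the length classes. Under 500 bases, 209 of 915 targets (22.8%) were higher and 128 (14.0%) lower, and at 500 to 1000 bases 615 of 2741 (22.4%) were higher and 294 (10.7%) lower. At 1000 to 2000 bases the directions were even, with 545 of 4186 (13%) higher and 532 (12.7%) lower. From there on calls were mostly lower in storage cells: 49 higher against 521 lower of 2111 at 2000 to 4000 bases, 3 against 213 of 455 at 4000 to 8000 bases, and 1 against 51 of 75 at 8000 bases or more. In the longest class 68.0% of the tested targets were called lower, against 16.6% over all targets. The filter on low counts left 915 of 2499 targets under 500 bases to be tested, against all 75 of 8000 bases or more. Without the filter, 693 targets under 1000 bases were called higher and 573 lower. Under 500 bases alone, lower calls then slightly outnumbered higher ones. Higher calls did not exceed lower ones among short targets in TPM. In limma on log2(TPM + 1), 424 targets under 1000 bases were called higher and 965 lower, and from 4000 bases on 0 higher and 451 lower.

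Among the tested targets the median log2 fold change fell in step with length. It was 0.73 under 500 bases, 0.53 at 500 to 1000, -0.01 at 1000 to 2000, -1.06 at 2000 to 4000, -2.19 at 4000 to 8000 and -3.06 at 8000 bases or more, against -0.14 over all targets tested. Size factors as in DESeq2 moved the median of all targets to -0.39 and upper-quartile factors moved it to -0.00, so changes are read relative to that centre, and the fall over the classes had the same order under both. Without the filter on low counts the medians were 0.17 under 500 bases and 0.18 at 500 to 1000. They fell with length only from there on, to -3.09 at 8000 bases or more, against -0.38 over all targets. In log2(TPM + 1) the medians fell with length over all classes but all lay below 0, at -0.22, -0.53, -0.98, -1.70, -2.44 and -2.90, against -1.12 over all targets. Values of all 5 storage libraries lay below those of all 3 whole bodies for 92.0% of targets in the longest class and 21.1% in the shortest, against 31% of all targets tested. They lay above them for 1.33% in the longest class and 33.0% in the shortest, against 18.5% of all targets. Leaving out whole-body replicate 1, 2 or 3 reduced the number of calls to 1167, 1259 and 1217, with 0 higher calls from 4000 bases on in each case and 170, 170 and 168 lower ones.

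Complete loss of detection in storage cells was ordered by length in the opposite way. Of the 10252 targets detected in all 3 whole bodies (at least 5 counts after thinning every library to 5404544 counts), 867 (8.46%) were detected in none of the 5 storage libraries. That share was 14.9% of 845 targets under 500 bases, 9.02% at 500 to 1000, 8.55% at 1000 to 2000, 6.24% at 2000 to 4000, 3.33% at 4000 to 8000 and 2.70% of 74 targets at 8000 bases or more. A long target yields more counts than a short one at the same number of molecules. Whether this accounts for the order was not tested, since detection was not classed by length and level together. Loss also differed by level: 23.4% of 2741 targets under 10 CPM in whole bodies were detected in no storage library. That share was 5.09% of 2748 targets at 10 to 30 CPM and smaller still at higher levels. Detection in all 5 storage libraries did not follow the order of loss by length. It was lowest for targets of 8000 bases or more, at 52.7%. It was 59.6% to 63.5% in the other length classes and 62.8% over all 10252 targets. In the other direction, 488 targets were detected in some storage library and in no whole body (0), of which 305 were found in 1 storage library and 22 in all 5.

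Abundance was classed by the mean of the 2 group means in TPM (kallisto's level per length, scaled to the same sum in every library). Targets of 1000 TPM or more were called higher in storage cells in 57 of 140 cases and lower in 6. At 100 to 1000 TPM, 511 of 1399 were higher and 132 lower, and at 10 to 100 TPM 817 of 6143 were higher and 906 lower. At 1 to 10 TPM the balance was 30 higher against 658 lower of 2595, and under 1 TPM 7 against 37 of 206. The median log2 fold change was 1.52, 1.00, 0.04, -1.93 and -2.39 from the most to the least abundant class. This order depended on how abundance was defined. Classes by whole-body TPM alone, an alternative chosen after seeing the data, gave medians of -0.25, 0.27, -0.03, -1.41 and 0.87 in the same sequence, which is no steady order.

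Length and abundance overlapped, since short targets reach high TPM more often. Within the abundance classes from 1 to 1000 TPM the medians fell with length as well. At 10 to 100 TPM, the median log2 fold change was 0.57 for 2045 targets under 1000 bases, -0.11 for 3810 targets of 1000 to 4000 bases and -2.05 for 288 targets of 4000 bases or more. Of these 288 long targets, 1 was called higher and 169 (58.7%) lower in storage cells, against 412 higher and 199 lower among the 2045 short ones. At 1 to 10 TPM the same medians were -0.88, -2.15 and -2.74. At 100 to 1000 TPM they were 1.17 for 797 short targets, 0.80 for 594 of intermediate length and -4.37 for only 8 long ones.

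**Figure D3:**
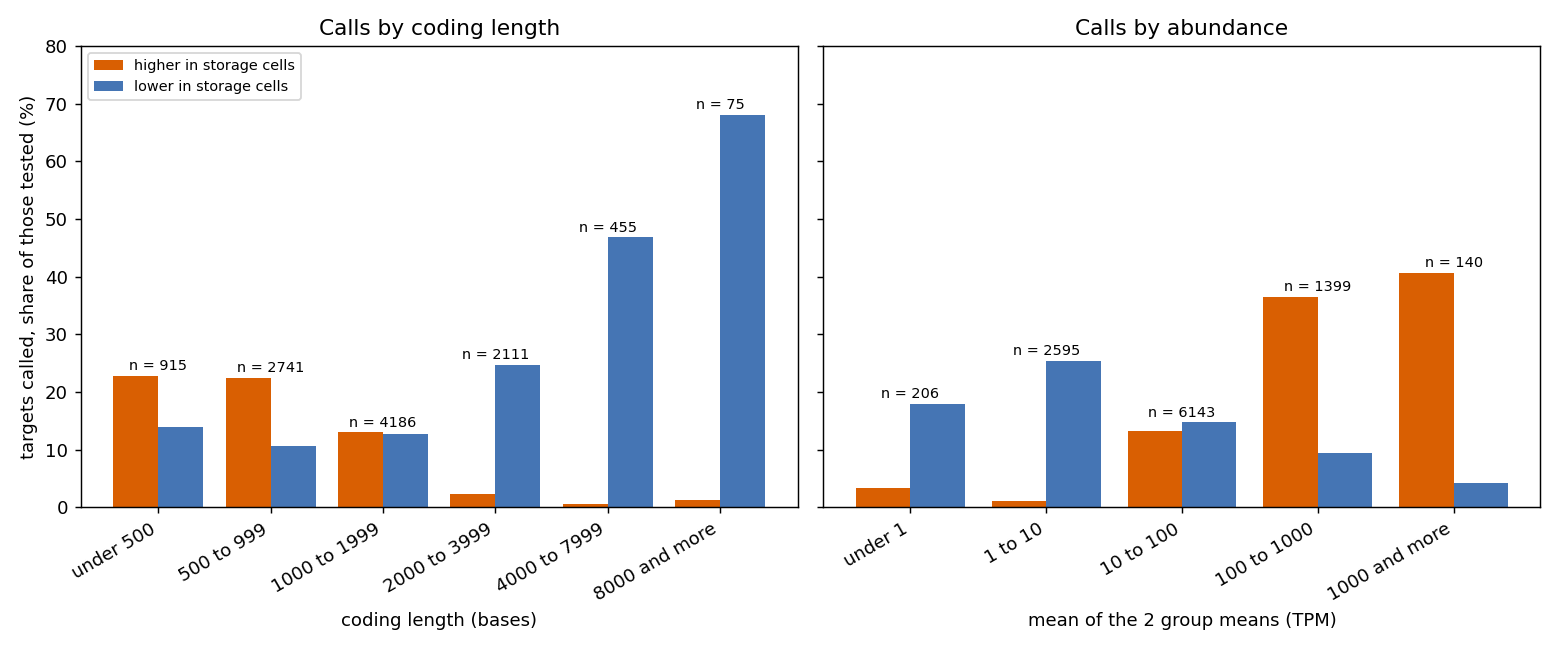
Share of tested targets (%) called higher (orange) or lower (blue) in storage cells than in whole bodies (edgeR adjusted p below 0.05), by coding length (left, bases) and by abundance (right, mean of the group means in TPM). Numbers are targets tested, after the filter on low counts. Without that filter, lower calls slightly outnumbered higher ones under 500 bases. Calls from these counts turn from mostly higher to mostly lower as length grows, reaching 68.0% lower at 8000 bases or more, whereas in log2(TPM + 1) they were mostly lower under 1000 bases too (424 higher, 965 lower).

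The targets that were among the most abundant in every storage library were short. In the 100 targets of highest TPM of each library, 26 were shared by all 5 storage libraries, with a median coding length of 582 bases, and 88 by all 3 whole bodies, with a median of 844.5 bases. These medians are of the shared targets only, not of the whole lists. Of the 26, 15 were also among the 100 highest of the mean whole body. The 5 storage lists together held 213 different targets and the 3 whole-body lists 111. Each storage list shared 25, 44, 32, 42 and 38 targets with the 100 highest of the mean whole body, in the order of replicates 1 to 5.

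Target g1671.t1, of 510 bases, had the highest mean TPM in storage cells, 48842 ± 30703 (SD, n = 5) against 6348 ± 532 in whole bodies (SD, n = 3), and the highest TPM of storage replicates 1, 3 and 4. It had 9622, 6648, 32171, 22525 and 15123 CPM in storage replicates 1 to 5, against 1437, 1214 and 1289 CPM in whole-body replicates 1 to 3. Every storage library was above every whole body, by 3.71 in the fitted log2 difference (SE 0.98, edgeR adjusted p = 0.025). Target g1676.t1, of 525 bases, had 2480, 3507, 5910, 9281 and 19615 CPM in storage cells and 797, 652 and 741 CPM in whole bodies, again without overlap (log2 fold change 3.48, SE 0.95, edgeR adjusted p = 0.0284). Both calls were lost without any one whole-body library (adjusted p of 0.117 to 0.127) and after the trend with length was removed (adjusted p of 0.0597 and 0.0682). Target g7188.t1 ranged from 1843 to 36471 CPM in storage cells and from 2463 to 3251 CPM in whole bodies, and was not called by edgeR (log2 fold change 2.42, SE 1.10, adjusted p = 0.131) but was by DESeq2 (adjusted p = 0.0226) and limma voom with group weights (adjusted p = 0.0234).

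The 5 targets of highest mean TPM in whole bodies were g12750.t1, g2834.t1, g7704.t1, g4549.t1 and g12749.t1, and each had over 2900 CPM in at least 4 storage libraries. Target g12750.t1 had 1154, 19507, 11033, 24769 and 65537 CPM in storage replicates 1 to 5 and 25972, 23344 and 26794 CPM in whole bodies. Target g7704.t1 had 94.5, 2900, 4790, 4979 and 4638 CPM in storage cells, against 8044, 8289 and 7909 CPM in whole bodies. Both were lowest in storage replicate 1. Target g4549.t1 instead was low in storage replicate 4, with 11394, 5384, 8396, 102 and 11251 CPM in storage cells and 5813, 5492 and 6576 CPM in whole bodies. Target g12749.t1 was the steadiest of this group at 3837 to 14348 CPM in storage cells and 7594 to 8341 CPM in whole bodies, with part of its reads shared with other targets. None of the 4 targets just given passed the threshold (edgeR adjusted p of 0.393 to 0.98), although limma voom with group weights called g7704.t1 lower (adjusted p = 0.0489).

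In each length class the largest calls with groups that did not overlap, and with at least 50 CPM in the higher group, were taken. Among the higher ones, g13790.t1 (276 bases) had 74.0, 20.01, 23.9, 69.2 and 98.8 CPM in storage cells and 1.73, 1.87 and 1.03 CPM in whole bodies (log2 fold change 5.20, SE 0.75, edgeR adjusted p = 0.00428). Target g2771.t1 (584 bases) had 365, 45.3, 84.8, 184 and 442 CPM in storage cells and no count in whole bodies, at least 1184-fold higher if the whole bodies are given 3 counts in all as a floor (edgeR adjusted p = 0.00481). Part of its reads were divided with other targets. Target g9429.t1 (1152 bases) had 55.3, 4.79, 48.5, 75.6 and 97.2 CPM in storage cells and 0.173, 0.17 and 0.687 CPM in whole bodies (edgeR adjusted p = 0.00572). These 3 were at or near 0 in whole animals.

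The higher targets that met the rule in the classes from 2000 to 8000 bases had a clear level in whole bodies. Target g2327.t1 (2526 bases) had 1554, 140, 471, 104 and 198 CPM in storage cells, against 41.8, 30.5 and 33.3 CPM in whole bodies (log2 fold change 3.81, SE 1.07, edgeR adjusted p = 0.0313). Target g6910.t1 (4236 bases) had 313, 118, 430, 87.7 and 203 CPM in storage cells, against 50.1, 58.3 and 58.2 CPM in whole bodies (log2 fold change 2.05, SE 0.57, edgeR adjusted p = 0.03). It was the only one of the class of 4000 to 8000 bases to meet the rule, against 183 lower targets. No target of 8000 bases or more met it on the higher side (0, against 47 lower). Both calls were lost without any one whole body (adjusted p of 0.103 to 0.115) and in log2(TPM + 1) (adjusted p = 0.0881 for g2327.t1 and 0.222 for g6910.t1).

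The lower targets so taken were at or near 0 in all storage libraries. The rule takes the most negative log2 fold change of a class, which favours such targets at any length. Of all 1739 targets called lower, 170 had no storage count. Target g13562.t1 (495 bases) had 4 counts in storage replicate 1, none in the others, and 79.3, 132 and 82.2 CPM in whole bodies (edgeR adjusted p = 0.00252). Targets g5794.t1 (543 bases) and g8400.t1 (1002 bases) had no count in storage cells. In whole bodies g5794.t1 had 163, 214 and 237 CPM and g8400.t1 had 77.4, 51.6 and 59.2 CPM, so that with a floor of 3 counts in all for the storage libraries they were at least 3251-fold and 994-fold lower there (edgeR adjusted p = 0.00161 and 0.00246). Reads of g13562.t1 and g5794.t1 were shared with other targets.

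The longer ones were alike. Target g8459.t1 (2019 bases) had 2 counts in storage cells, both in replicate 2, and 765, 884 and 1181 CPM in whole bodies, 22456 times as much per count of library over the pooled groups (exact 95% counting interval 6216 to 185445; edgeR adjusted p = 0.000613). Target g1434.t1 (5301 bases) had 1 count, also in replicate 2, and 371, 497 and 606 CPM in whole bodies, 23407 times as much (interval 4200 to 924619; edgeR adjusted p = 0.00047). Target g2556.t1 (12258 bases) had 0, 1.80, 0, 0.676 and 0.134 CPM in storage cells, against 281, 356 and 418 CPM in whole bodies (edgeR adjusted p = 0.00451). Target g12777.t1 (696 bases), which the naming rule includes by its identifier, had 0, 0.513, 0, 0.563 and 2.82 CPM in storage cells and 113, 93.8 and 101 CPM in whole bodies (edgeR adjusted p = 0.00848). These intervals cover counting error only.

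**Figure D4:**
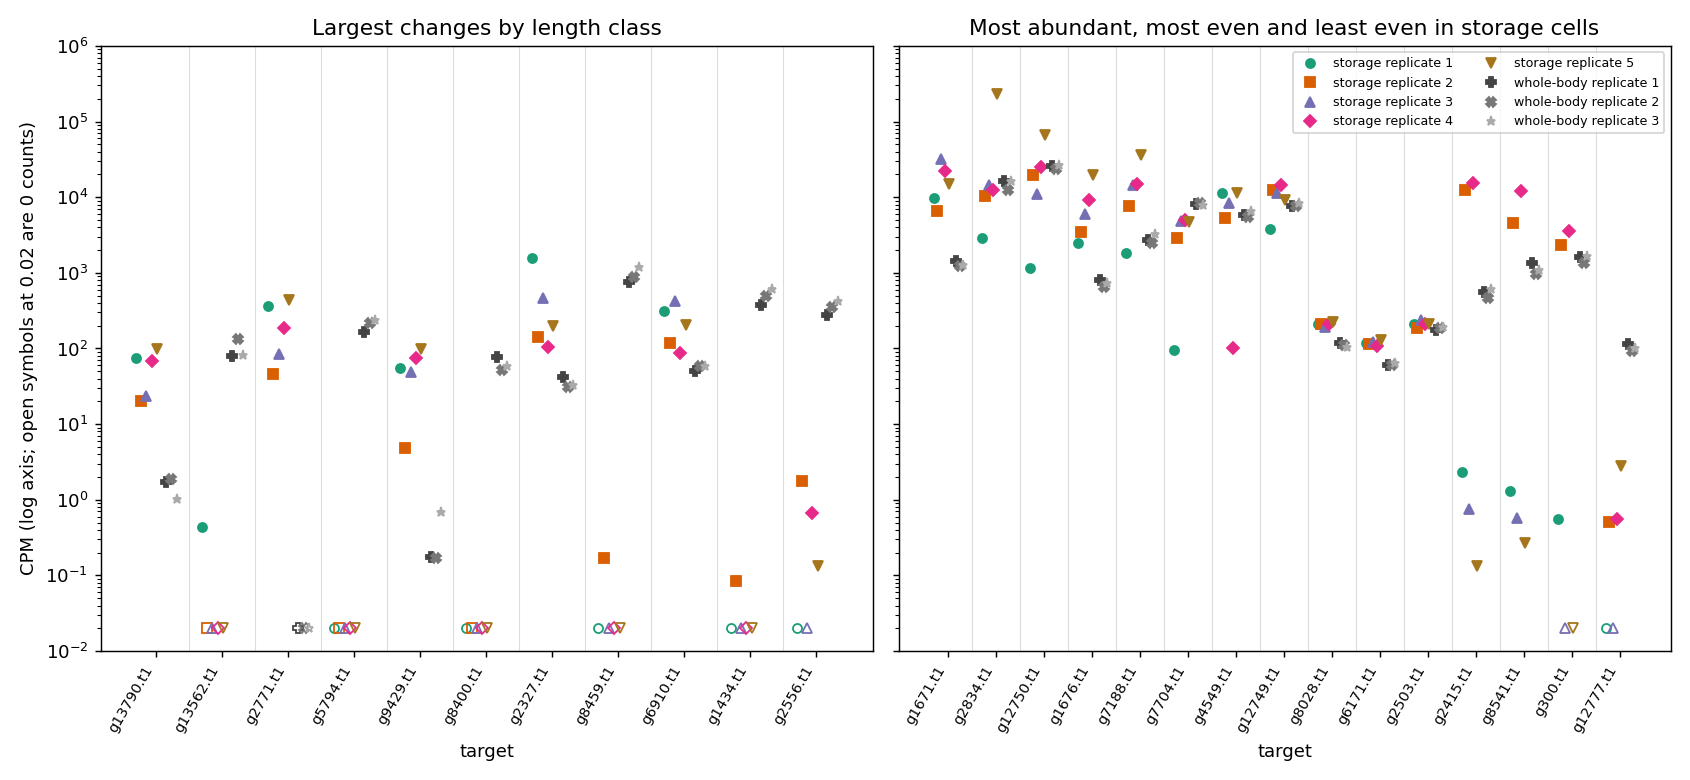
CPM (log axis, open symbols at 0.02 standing for 0 counts) of the named targets in the 5 storage cell libraries (coloured, left of each column) and the 3 whole-body libraries (grey, right of each column). Left, the largest calls of each length class. Right, the most abundant targets, the 3 most even and the 3 least even targets among storage libraries, and g12777.t1. Targets g2415.t1, g8541.t1 and g300.t1 are above 2000 CPM in storage replicates 2 and 4 and below 3 CPM in replicates 1, 3 and 5.

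Storage libraries differed among themselves far more than whole bodies did. The biological coefficient of variation fitted by edgeR was 1.18 within storage cells and 0.148 within whole bodies. For targets averaging 10 CPM or more in their group, the highest library exceeded the lowest by a median of 3.55-fold over 6708 targets in storage cells and 1.21-fold over 7530 targets in whole bodies, with 0.5 counts added. The median SD of log2 CPM among storage libraries was 1.35 at 1 to 10 TPM, 0.76 at 10 to 100 TPM, 0.83 at 100 to 1000 TPM and 1.11 at 1000 TPM or more, so both the rare and the most abundant targets were uneven. Among whole bodies it was 0.30, 0.15, 0.13 and 0.12 in the same classes. By length it rose from 0.76 under 500 bases to 1.24 at 8000 bases or more in storage cells, and was 0.24 and 0.15 in whole bodies.

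Calls were fewer where storage libraries were less even. The edgeR test sets a difference against the spread within groups, so such a fall is largely built into it. With an SD under 0.5 on the log2 scale among storage libraries, 1218 of 2229 targets (54.6%) were called in either direction, against 30.2% over all tested. With an SD of 2 to 3 it was 84 of 1133 (7.41%) and with an SD of 3 or more 10 of 774 (1.29%). The 3 steadiest targets of at least 100 CPM in storage cells were g8028.t1 (1110 bases), g6171.t1 (981 bases) and g2503.t1 (1641 bases). Target g8028.t1 had 209, 208, 193, 214 and 225 CPM in storage cells and 119, 110 and 106 CPM in whole bodies, which is 0.91 higher in log2 (SE 0.22, edgeR adjusted p = 0.0173). Target g6171.t1 had 109 to 131 CPM in storage cells and 60.9 to 63.7 CPM in whole bodies (log2 fold change 0.94, SE 0.20, edgeR adjusted p = 0.0111). Neither was called without any one whole body (adjusted p of 0.0583 to 0.0921) or in log2(TPM + 1) (adjusted p of 0.461 and 0.643), and g8028.t1 was not called with size factors as in DESeq2 (adjusted p = 0.0533). Both calls were also lost after the trend with length was removed (edgeR adjusted p of 0.0999 for g8028.t1 and 0.135 for g6171.t1). Target g2503.t1 did not pass the threshold (188 to 239 CPM in storage cells, 175 to 191 CPM in whole bodies, edgeR adjusted p = 0.516).

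The least even targets were all high in storage replicates 2 and 4 and almost without counts in replicates 1, 3 and 5. Target g2415.t1 (1257 bases) had 12593 CPM in storage replicate 2 and 15617 CPM in replicate 4, but 2.32, 0.761 and 0.134 CPM in replicates 1, 3 and 5, against 550, 470 and 607 CPM in whole bodies. Target g8541.t1 (1923 bases) had 4630 and 12256 CPM in storage replicates 2 and 4 and 1.32, 0.570 and 0.268 CPM in replicates 1, 3 and 5, against 1360, 953 and 1080 CPM in whole bodies. Target g300.t1 (750 bases) had 2360 and 3599 CPM in storage replicates 2 and 4 and at most 0.551 CPM in the others, against 1637, 1338 and 1662 CPM in whole bodies. None of the 3 passed the threshold over all 5 storage libraries (edgeR adjusted p of 0.454 to 0.932). For g300.t1, limma voom with group weights called it lower (adjusted p = 0.0264).

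Many targets divided the libraries in this way. Across the 10483 targets tested, which share libraries and depth and are not independent, Spearman's rho of log2 CPM was 0.887 to 0.899 among storage replicates 1, 3 and 5, 0.811 between replicates 2 and 4, and 0.691 to 0.811 for the 6 pairs across. Replicate 4 was as close to replicates 3 (0.811) and 5 (0.81) as to replicate 2, so over all targets rho did not set 2 and 4 apart as a pair. Whole-body pairs had 0.98 to 0.983. Of the 6708 targets with a storage mean of at least 10 CPM, 280 were over 8-fold higher in both of replicates 2 and 4 than in each of the other 3. For the other 9 pairs this number was 0 to 20. These 280 targets, picked for that pattern, held 15.8% and 15.1% of the counts of storage replicates 2 and 4, and 0.0395%, 0.0928% and 0.0258% of those of replicates 1, 3 and 5. In whole bodies, which had no part in their choice, they held 6.25%, 5.65% and 5.95%. Their median coding length was 1332 bases, against 1350 bases for the 6708.

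Replicates 2 and 4 were also not the same. Replicate 2 alone was over 8-fold above all other storage libraries for 151 targets, against 6 to 35 for each of the other libraries, and over 90% of the storage signal lay in it for 129 of the 166 targets concentrated in 1 library. Of the targets detected in all whole bodies, 591 were detected in replicate 2 and no other storage library, against 43, 118, 166 and 61 in replicates 1, 3, 4 and 5, and 415 were detected in replicates 2 and 4 only. Replicate 1 was over 8-fold below all other storage libraries for 110 targets, and replicates 1 and 5 together were below the other 3 for 102. Replicate 2 had the highest mean rho with whole bodies (0.648, against 0.509 to 0.575 in the other storage libraries) and the lowest with its own group (0.734, against 0.799 to 0.830). It also had the most targets detected at equal depth, 9272 against 7517 to 8667 in the other storage libraries, and 10826, 10834 and 10725 in whole bodies (storage cells against whole bodies, exact permutation p = 0.0179, adjusted p = 0.0268; adjusted p = 0.0571 without any one whole body and 0.0686 without storage replicate 4). The part of other tissues in this library was not tested, because no marker could be named.

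**Figure D5:**
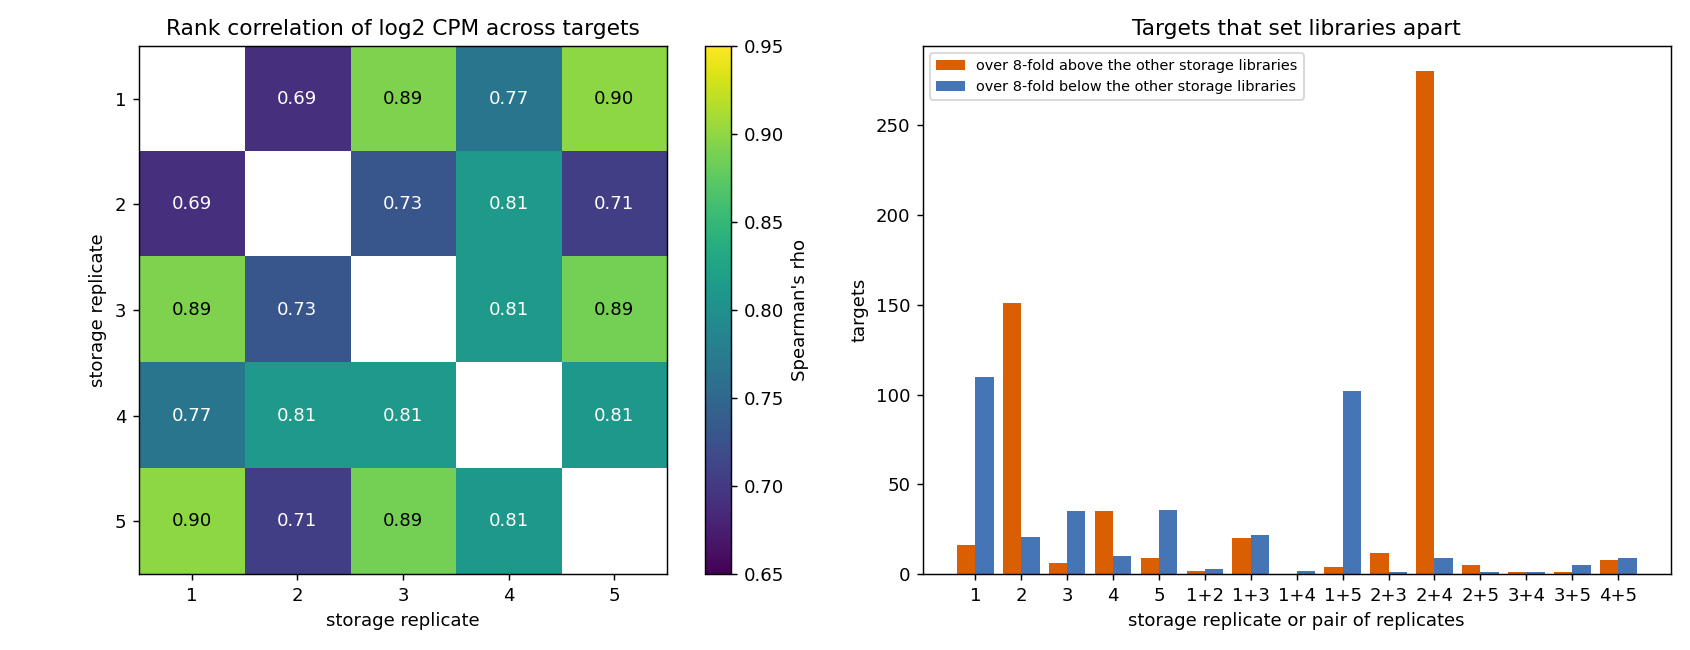
Left, Spearman's rho of log2 CPM across 10483 targets for each pair of the 5 storage cell libraries. Right, number of targets over 8-fold above (orange) or below (blue) the remaining storage libraries in 1 replicate or in both of a pair. Replicates 1, 3 and 5 are alike (0.887 to 0.899), and the pair 2 and 4 has 280 targets above the rest.

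Several of the targets with the most counts in the longer classes were also uneven among storage libraries, in different patterns. Target g772.t1 (5358 bases) made up 4.94% to 6.002% of the counts of whole bodies and 2.67%, 1.16% and 6.16% of those of storage replicates 2, 4 and 5, but 0.047% and 0.0891% of those of replicates 1 and 3. With it set aside, the class of 4000 to 8000 bases held 1.73%, 1.52% and 1.73% of the counts in storage replicates 2, 4 and 5, against 10.1% to 10.6% in whole bodies. Target g773.t1 (2730 bases) showed nearly the reverse, with 5.01% and 2.18% of the counts of storage replicates 1 and 3, 0.287% in replicate 5 and at most 0.0048% in replicates 2 and 4, against 1.203% to 1.27% in whole bodies. The share of the class of 2000 to 4000 bases in storage replicate 1 was 28.5% with it and 23.5% without it. Target g786.t1 (9702 bases) had 2194, 3894 and 2120 CPM in storage replicates 1, 3 and 5 and 5.90 and 3.38 CPM in replicates 2 and 4, against 23453, 27400 and 24585 CPM in whole bodies. Target g4155.t1 (12078 bases) had 1181 and 659 CPM in storage replicates 2 and 4 and no count in the other 3, against 1531, 1538 and 1808 CPM in whole bodies. None of these 4 was called (edgeR adjusted p of 0.146 to 0.934). Target g3808.t1 (2796 bases), which had the most counts of its class in all 3 whole bodies, did: it had 0, 81.8, 0.0951, 2.48 and 237 CPM in storage cells, against 17140, 15922 and 18077 CPM in whole bodies (log2 fold change -8.05, SE 2.56, edgeR adjusted p = 0.0469). Target g2849.t1 (4815 bases) had 1220 CPM in storage replicate 1 and 0 to 125 CPM in the others, against 262 to 591 CPM in whole bodies, and was not called (edgeR adjusted p = 0.898). Target g2620.t1 (2079 bases), with the most counts of the class of 2000 to 4000 bases in storage replicates 4 and 5, was more even. It had 5071, 2485, 5842, 4874 and 6482 CPM in storage replicates 1 to 5, against 2241, 2229 and 2139 CPM in whole bodies. It was not called (edgeR adjusted p = 0.149). All targets in this paragraph were named after their values had been seen.

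The share of the most abundant targets did not separate the sample types when all targets were used. The 100 most abundant targets of each library held 35.1%, 34.8%, 38.3%, 39.6% and 55.9% of the counts in storage replicates 1 to 5, against 37.7%, 36.5% and 38.0% in whole bodies (exact permutation p = 0.75, adjusted p = 0.75). Only replicate 5 stood clear, and without it the difference of 3.33 percentage points became -0.469. In TPM the difference was 10.1 points (exact permutation p = 0.107, adjusted p = 0.107). With the 10 most abundant targets of each library set aside it was 7.25 points (exact permutation p = 0.0179, adjusted p = 0.0214). Target g2834.t1 (1056 bases) held 15.4% of the counts of storage replicate 5, 0.322% to 1.59% in the other storage libraries and 1.37% to 1.73% in whole bodies.

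Genes with several targets were compared as a class. Of 745 tested targets of genes with 2 or more targets, 48 (6.44%) were called higher and 121 (16.2%) lower in storage cells, against 1374 (14.1%) and 1618 (16.6%) of 9738 targets of genes with 1. Of 304 genes with at least 2 targets tested, 35 had a target called higher, 72 had one called lower and 2 had both. In gene g12395, g12395.t2 (6153 bases) had 0.513 to 25.1 CPM in storage cells and 0 to 0.17 CPM in whole bodies, while g12395.t1 (6159 bases) had 1.98 to 19.4 CPM in storage cells and 110 to 114 CPM in whole bodies (edgeR adjusted p = 0.02 and 0.0104). In gene g7105, g7105.t1 (8289 bases) had 0.951 to 36.7 CPM in storage cells and 0 to 0.173 CPM in whole bodies, while g7105.t2 (8301 bases) had 9.75 to 54.0 CPM in storage cells and 146 to 183 CPM in whole bodies (edgeR adjusted p = 0.0286 and 0.0127). Target g7105.t3 (7779 bases) of the same gene was also called lower. It had 0.882 to 3.36 CPM in storage cells and 29.0 to 70.2 CPM in whole bodies (edgeR adjusted p = 0.00242). Targets of a gene can share reads and these had counts that were not whole, so how the counts were divided between them is uncertain.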

How the data were processed

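RNA was sequenced from 5 storage cell and 3 whole-body libraries of R. varieornatus. Per the submitters' processing notes, bcl2fastq 2 and kallisto 0.46.1 were used. For genome build, annotation and read filters: not given in the sources used here. Per the file headers, the authors deposited 1 table per library with length, estimated counts and TPM. Estimated counts need not be whole because reads shared by targets are divided among them (9.08% to 11.0% of the targets with counts in a library were further than 1e-06 from a whole number). The deposited TPM values carry no scaling for composition. Libraries of the other species were not used.

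Samples were grouped by title. The titles call replicates biological, and nothing says that they come from separate cultures, so p-values measure the spread between these samples. Estimated counts were rounded and fitted with edgeR 4.0.16 (R 4.3.3): filterByExpr, TMM, and the quasi-likelihood test over the 8 libraries without covariates, adjusted by the Benjamini-Hochberg method over 10483 targets. Each SE was derived from the log2 fold change and its F statistic. The group spreads are very unequal, which this model does not represent, and limma 3.58.1 voom with quality weights per group was an alternative. Others were DESeq2 1.42.0, other scalings, no filter, TPM with 2 pseudocounts, gene sums, removal of the length trend and leaving out libraries. Per-library measures were tested by exact permutation. Scripts were tested on simulated data. Python 3.11.15, numpy 2.4.6, pandas 2.3.3 and scipy 1.17.1 were used.

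Named targets were, by rule, the largest higher and lower call without overlap per length class (group mean of 50 CPM or more on the higher side), the 5 most abundant per group, the leader of each storage library, the 3 most and 3 least even targets of at least 100 CPM in storage cells, and g12777.t1. The groups, lists and tests were chosen with earlier results of these data known. Intervals and floors cover counting error only.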

Additional observations from a re-analysis of the deposited data

Results flagged for a closer look

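In 7 of 32 per-library quantities screened, 1 storage library stood apart from the other 4 by more than Dixon's criterion. Chance gives that in about 1 of 20 groups of normal values, and CPM are skewed, so no rate of chance can be read from these 7. The 100 most abundant targets held 55.9% of the counts in storage replicate 5 and 34.8% to 39.6% in the other storage libraries. Target g2834.t1 had 230889 CPM in the same replicate and 2918 to 14606 CPM in the others, and g12777.t1 had 2.82 CPM there and at most 0.563 CPM in the others. Target g2327.t1 had 1554 CPM in storage replicate 1 and 104 to 471 CPM in the others. The other 3 were values of 1 to 4 counts where all other storage libraries were at 0, which meet the criterion by construction, namely 0.441 CPM of g13562.t1 in replicate 1 and 0.171 CPM of g8459.t1 and 0.0855 CPM of g1434.t1 in replicate 2.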

How the results depend on the processing

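The count of 3161 called targets became 4830 with limma on log2(TPM + 1), 5933 with limma voom and group weights, 5281 without storage replicates 2 and 4 (chosen after seeing the data), and 1167 to 4319 when 1 library was left out, the low values being those without a whole body. Calls higher in storage cells were 12.3% of all calls in log2(TPM + 1), 33.7% with size factors as in DESeq2, 34% with voom and 51% with upper-quartile factors. With the trend in length removed there were 2140 calls, of which 1875 were kept in direction from the main calls and 94 of the main calls had the opposite sign. The replicate numbers did not pair the samples (correlation of deviations 0.0668, 0.00211 and 0.0302 for numbers 1 to 3). With replicates 1 to 3 alone, edgeR called 2721 without and 0 with the replicate block (3058 at an unadjusted p under 0.05 with it). The cause was not tested.

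With the replicate block (exact permutation p = 0.25, the smallest possible) the differences of storage cells minus whole bodies were -2532 detected targets, -1091 bases in mean length, 11.3 points in the share under 1000 bases, -16.8 points in the share from 4000 bases on and -2.87 in long minus short, and -1.34 points in the share of the 100 most abundant targets (exact p = 0.5). Without storage replicates 2 and 4 (adjusted p = 0.12) the first 5 were -3098, -1045, 8.86, -15.6 and -2.86. Without the 10 most abundant targets the share under 1000 bases differed by 10.4 points (adjusted p = 0.0643) and that of the 100 most abundant by 7.25 points (adjusted p = 0.0214). Leaving out 1 library at a time gave -2855 to -2417 detected targets, -1167 to -1080 bases, 10.5 to 14.2 points, -17.0 to -15.7 points, -3.10 to -2.93, and -0.469 to 4.81 points for the 100 most abundant.

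Among named targets that were not called, the sign of the log2 fold change turned as follows. Target g2503.t1 was at -0.0397 with DESeq2, -0.0395 with its size factors, and -0.59 in both TPM fits. Target g4549.t1 was at -0.29 with the length trend removed, -1.38 in both TPM fits and -0.73 with voom. Target g12749.t1 was at -0.0695 with the length trend removed and -0.42 in both TPM fits. Target g2834.t1 was at -0.63 in both TPM fits, -0.68 without and -0.94 with the replicate block, and -0.64 to 2.16 with 1 library left out. Target g2415.t1 was at -4.40 and -3.51 in log2(TPM + 0.1) and log2(TPM + 1), -3.67 with voom, -7.00 with the block and -8.94 without storage replicates 2 and 4. Target g8541.t1 was at -5.84, -4.72, -5.11, -8.73 and -10.56 under the same settings. Both were picked as the least even, being near 0 in storage replicates 1, 3 and 5, so their values without replicates 2 and 4 follow from that choice. Target g12750.t1 was at 0.13 with upper-quartile factors, 0.0363 without storage replicates 2 and 4, and -0.89 to 0.26 with 1 library left out.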
